A study of Mus musculus with 48 samples.

Results

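Polycomb repressor complex 2 (PRC2) was described here through the RNA of 10 of its subunits, *Eed*, *Ezh1*, *Ezh2*, *Suz12*, *Rbbp4*, *Rbbp7*, *Jarid2*, *Mtf2*, *Aebp2* and *Phf19*, across the cell kinds of the mouse hypothalamus. The 10 genes were chosen by name, and all 10 were present among the 16510 genes of the table. RNA was counted in single cells of the hypothalamus at E18.5, late in gestation, from 6 control embryos with 2 floxed *Eed* alleles (Eed fl/fl) and 9 Eed-cKO embryos that carried Sox1-Cre besides those alleles (Eed fl/fl; Sox1-Cre/+). Cre, the enzyme that cuts out floxed DNA, is driven here by *Sox1*, a gene switched on in the neural plate. Neurons, astrocytes, ependymal cells and tanycytes thus descend from cells that had Cre. The study left out non-neural cells, such as vascular cells and microglia, because Sox1-Cre would not have targeted them. It filtered out leptomeningeal cells too, and whether Cre acted in any of these was not tested here. Both sexes were present in each genotype, and the controls carried no Cre.

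PRC2 places the methyl groups of H3K27me3, a histone mark of silenced genes. EZH2 or EZH1 is the enzyme of the complex, EED and SUZ12 are needed for its activity, and RBBP4 or RBBP7 binds histones. EZH2 is known for high levels in dividing progenitors and EZH1 for its presence in cells that have stopped dividing. Accessory subunits define 2 forms of the complex, PRC2.1, which holds MTF2, PHF19 or PHF1, and PRC2.2, which holds JARID2 and AEBP2.

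The promoters of 4 of the genes are shown. *Ezh2*, *Suz12* and *Phf19* are the members whose window held an E2F-type motif and were chosen for it, and *Ezh1* stands beside *Ezh2* as the other enzyme. RNA of these 3 genes was high in cycling cells, but so was that of *Rbbp4* and *Aebp2*, whose windows held no match. Each is the RefSeq window of 300 bases around the transcription start in GRCm38.p6, written 5′ to 3′ on the strand of the gene. Capitals mark the motif, searched as TTTGGCGC, TTTCCCGC, TTTGCCGC or TTTCGCGC on both strands.
Ezh2, chr6:47594981-47595280, minus strand: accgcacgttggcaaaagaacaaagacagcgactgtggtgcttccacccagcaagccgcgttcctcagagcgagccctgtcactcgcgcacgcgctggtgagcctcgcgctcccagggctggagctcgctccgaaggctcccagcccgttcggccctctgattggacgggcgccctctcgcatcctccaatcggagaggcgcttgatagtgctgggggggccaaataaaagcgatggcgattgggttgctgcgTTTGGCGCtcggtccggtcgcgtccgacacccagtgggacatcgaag
Suz12, chr11:79992856-79993155, plus strand: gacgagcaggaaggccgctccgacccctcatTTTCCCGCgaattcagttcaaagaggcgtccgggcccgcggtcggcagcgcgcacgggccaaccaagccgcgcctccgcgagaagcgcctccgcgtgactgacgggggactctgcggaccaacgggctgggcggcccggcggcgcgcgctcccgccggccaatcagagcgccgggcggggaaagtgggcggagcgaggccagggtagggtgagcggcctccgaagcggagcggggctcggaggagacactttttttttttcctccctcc
Phf19, chr2:34913927-34914226, minus strand: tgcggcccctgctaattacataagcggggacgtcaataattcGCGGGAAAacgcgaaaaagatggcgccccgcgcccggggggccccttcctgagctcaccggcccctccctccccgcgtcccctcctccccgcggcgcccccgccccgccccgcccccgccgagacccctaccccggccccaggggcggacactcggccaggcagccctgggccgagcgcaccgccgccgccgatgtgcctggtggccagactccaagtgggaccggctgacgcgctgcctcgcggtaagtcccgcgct
Ezh1, chr11:101226414-101226713, minus strand: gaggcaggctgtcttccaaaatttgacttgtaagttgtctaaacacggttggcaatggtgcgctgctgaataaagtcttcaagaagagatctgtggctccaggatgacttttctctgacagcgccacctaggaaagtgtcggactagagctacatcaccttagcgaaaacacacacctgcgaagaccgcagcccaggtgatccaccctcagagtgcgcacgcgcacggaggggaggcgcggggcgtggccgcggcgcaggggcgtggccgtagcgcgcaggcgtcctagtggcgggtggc
E2F proteins are transcription factors of the cell division cycle. The motif began 3 bases after the start in *Ezh2*, 219 bases before it in *Suz12* and 208 bases before it, as the reverse complement GCGGGAAA, in *Phf19*. No match was found in the *Ezh1* window, nor in the windows of the other 6 genes. Of 32851 RefSeq mouse promoter windows, 744 (2.26%) held a match. A match describes these letters and is no evidence of binding, and no match says only that the letters are not in the window.

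The table held 14121 cells and 74487617 UMIs, each UMI standing for 1 captured transcript end. A control embryo held 5363119 to 7487417 UMIs in 1042 to 1664 cells, and an Eed-cKO embryo 658175 to 6299181 UMIs in 217 to 1111 cells. One control library held 1207 cells and the next largest 396, and any pair of libraries shared at most 2 cell barcodes. The number at the start of each library name was taken as the litter, although the labels do not state what it marks. By this reading the libraries came from 4 control and 6 Eed-cKO litters. No such litter held both genotypes, so litter and genotype cannot be told apart. The members ranged from 137 UMIs in 109 cells for *Phf19* to 21160 UMIs for *Rbbp4*, with 934 for *Ezh1* and 3847 for *Ezh2*. Levels are given as CPM, the UMIs of a gene per 1000000 UMIs of the same cells, and the embryo was the replicate. Since a UMI marks 1 transcript end whatever the length of the transcript, CPM needs no division by length, but capture can differ between genes, so the ratio of 2 genes is compared between cell kinds and not read as a ratio of molecules.

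Cells were clustered without the members, and the clusters were named from marker lists. Neuron-like clusters held 9828 cells, the astrocyte-like cluster 1016, the cycling cluster 297, and the non-neural clusters 828, of which 273 were endothelial-like, 357 leptomeningeal-like, 101 pericyte-like and 97 microglia-like. All cells outside the non-neural clusters, called All-Hypo here, were 6839 control and 6454 Eed-cKO cells. They included 1910 cells of unnamed clusters, and cluster 26 among these (61 cells, all Eed-cKO) was led by *Ttr* and *Tshb*, genes of choroid plexus and pituitary. None of the members was among the 2000 most variable genes. A run that allowed the members therefore used none of them. It gave 100% of the cells the same kind, which does not test what the members would do. Cells of a kind entered a value for an embryo only where that embryo held at least 10 of them, which left 12 embryos for cycling and 14 for non-neural cells.

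The markers matched the names with 2 limits. All 12 cycling markers were raised in the cycling cluster, but its leading genes also included *Sox10* and *Gpr17*, genes of oligodendrocyte precursors. The summed level of 6 oligodendrocyte precursor markers in that cluster was 3250 to 5649 CPM in control embryos (median 4414) and 985 to 2196 in Eed-cKO embryos (median 1020), and that of the 12 cycling markers was 1939 to 5762 (median 3694) and 4542 to 6229 (median 5716). The cycling cluster of the control embryos was thus poorer in cycling markers in the median, with overlapping ranges, and richer in precursor markers, without overlap. Non-neural cells held RNA of all 13 neuron markers, none at 0, at a summed level of 1811 to 7404 CPM in controls and 2652 to 5116 in Eed-cKO, against 15817 to 18167 in neuron-like cells. The part of RNA from other cells in the non-neural values was not tested.

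*Ezh2* was highest in cycling cells. Over both genotypes its level was 204 ± 82.2 CPM in cycling cells (SD, n = 12 embryos), 70.8 ± 28.1 in astrocyte-like cells (n = 15), 49.5 ± 8.75 in neuron-like cells (n = 15) and 40.1 ± 13.97 in non-neural cells (n = 14). The lowest cycling value of an embryo, 74.8 CPM, lay above the highest neuron-like value, 68.2. In each of the 12 embryos with both, cycling cells exceeded neuron-like cells, 4.37-fold in the means. Astrocyte-like cells exceeded neuron-like cells in 13 of 15 embryos, with overlapping ranges, and neuron-like exceeded non-neural cells in 12 of 14. Since the kinds are clusters of the same cells, differences between kinds are described without a test.

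Within cycling cells, the *Ezh2* level of control embryos spread from 74.8 to 422 CPM with a median of 188. In Eed-cKO embryos it kept to 172 to 224 with a median of 202. The highest control value came from 12 UMIs. At a finer resolution the cluster split. Of its 132 control cells 51 remained cycling and 81 did not, and of its 165 Eed-cKO cells 126 remained and 39 did not. Most control cells of the cluster thus lost the name. The cells that remained cycling gave a ratio of cycling to neuron-like cells of 5.01.

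*Ezh1* was highest in non-neural and lowest in cycling cells. Its level was 22.6 ± 9.01 CPM in non-neural cells (n = 14), 12.3 ± 3.73 in neuron-like cells (n = 15), 10.9 ± 6.88 in astrocyte-like cells (n = 15) and 7.52 ± 8.68 in cycling cells (n = 12). Non-neural cells exceeded neuron-like cells in all 14 embryos, 1.79-fold, although the ranges over embryos overlapped (12.6 to 44.0 CPM against 8.16 to 23.3). Neuron-like, astrocyte-like and cycling cells did not differ beyond their spread, and the cycling value rested on 12 UMIs in all. Among the non-neural kinds the level was 22.8 ± 14.5 CPM in endothelial-like cells (n = 12) and 20.5 ± 15.1 in leptomeningeal-like cells (n = 11). Microglia-like cells, the macrophages of the brain, had 15 UMIs of *Ezh1* and 15 of *Ezh2*, or 43.0 CPM for each with a 95% Poisson interval of 24.1 to 71.0. Intervals here cover counting error only.

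**Figure D1:**
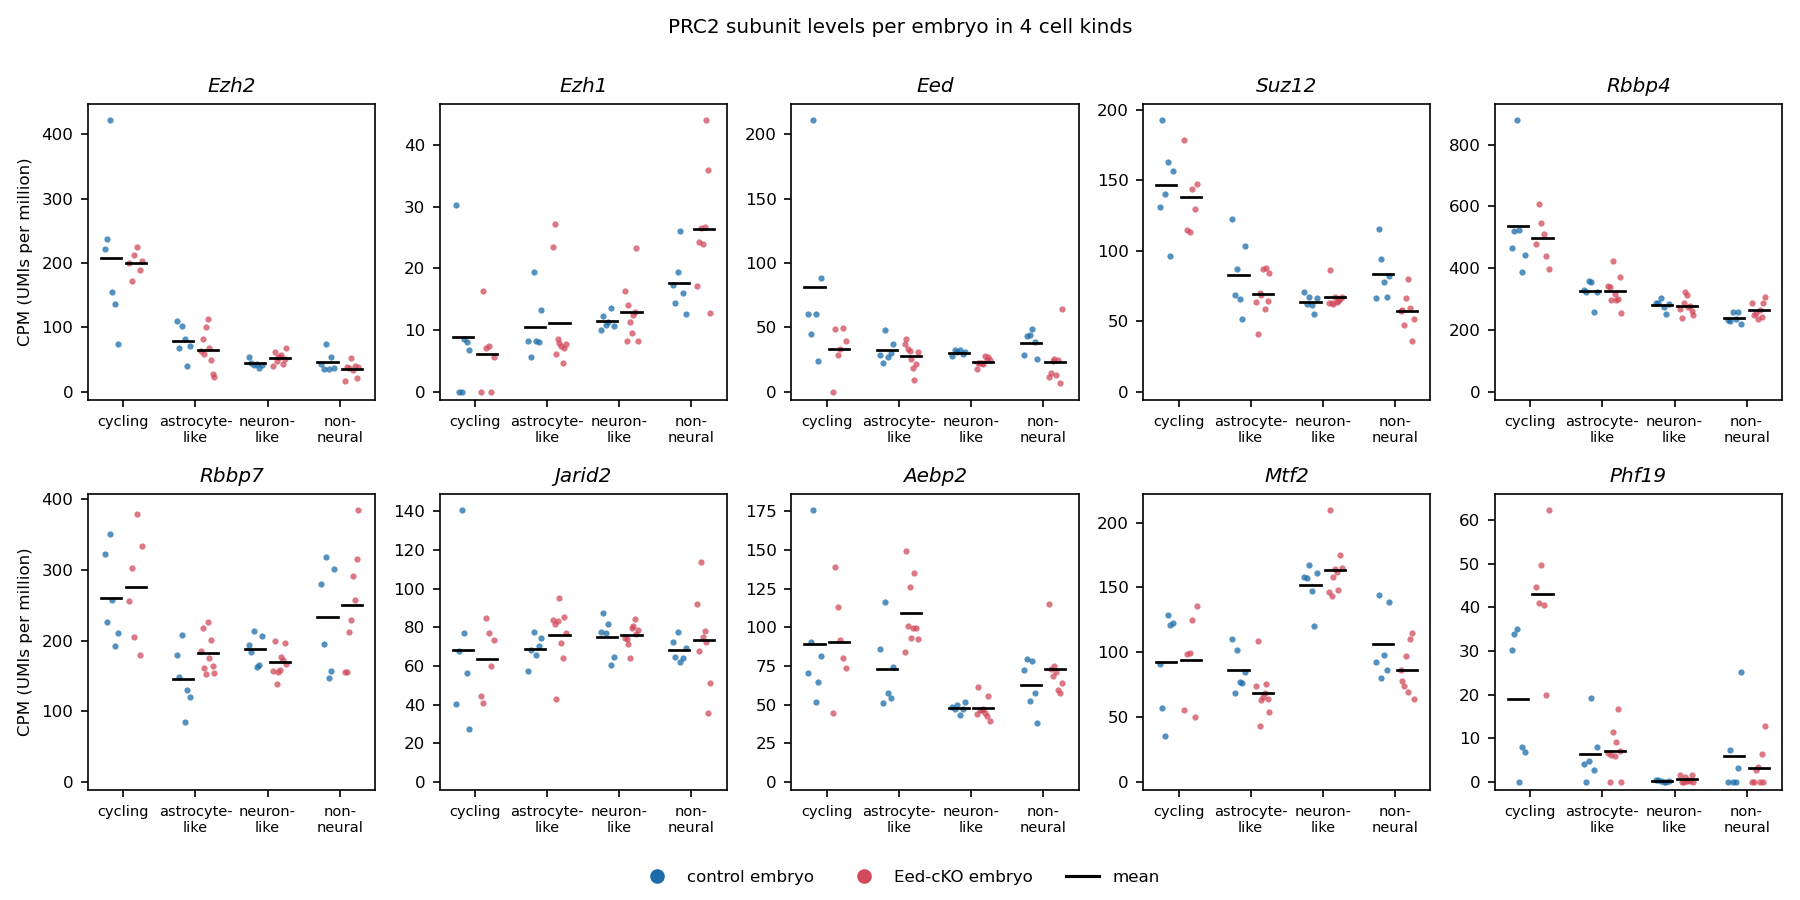
Level of each of the 10 PRC2 subunits in cycling, astrocyte-like, neuron-like and non-neural cells, in CPM (linear axis), 1 point per embryo (blue control, red Eed-cKO) with a bar at the mean of each genotype. *Ezh2*, *Suz12* and *Rbbp4* were higher in cycling than in neuron-like cells of all 12 embryos with both kinds, and *Mtf2* was higher in neuron-like than in astrocyte-like cells of all 15.

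Among the core subunits without enzyme activity, *Suz12* and *Rbbp4* followed *Ezh2*. *Suz12* was at 142 ± 27.7 CPM in cycling cells, against 65.7 ± 6.76 in neuron-like, 75.01 ± 20.8 in astrocyte-like and 68.5 ± 20.3 in non-neural cells. Its cycling values (96.6 to 192 CPM) lay above all neuron-like values (54.9 to 86.3), and cycling cells were higher in 12 of 12 embryos, 2.23-fold. Non-neural kinds were not alike, with *Suz12* at 106 ± 32.1 CPM in endothelial-like (n = 12) and 36.8 ± 17.6 in leptomeningeal-like cells (n = 11), the latter below the neuron-like value in 11 of 11 embryos. *Rbbp4*, one of both histone-binding subunits, which also serves other chromatin complexes, was at 516 ± 130 CPM in cycling, 326 ± 43.4 in astrocyte-like, 279 ± 23.3 in neuron-like and 254 ± 25.3 in non-neural cells. Cycling cells exceeded neuron-like cells in 12 of 12 embryos (1.81-fold, ranges apart) and astrocyte-like exceeded neuron-like cells in 15 of 15 (1.17-fold, ranges overlapping).

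The other histone-binding subunit, *Rbbp7*, did not share the order of *Rbbp4* outside cycling cells. It was at 268 ± 67.7 CPM in cycling cells, 243 ± 75.5 in non-neural, 177 ± 21.6 in neuron-like and 167 ± 38.4 in astrocyte-like cells. Non-neural cells exceeded neuron-like cells in 11 of 14 embryos, and leptomeningeal-like cells had the highest mean of the larger kinds, 291 ± 91.0 CPM. Cycling and non-neural cells did not differ beyond their spread, and neither did neuron-like and astrocyte-like cells.

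*Eed*, which binds H3K27me3 and stimulates the enzyme, did not differ beyond its spread between the kinds outside cycling cells. It was at 57.5 ± 53.0 CPM in cycling cells, where embryos ran from 0 to 211, and at 26.2 ± 4.43 in neuron-like, 29.5 ± 9.54 in astrocyte-like and 29.6 ± 16.3 in non-neural cells. Cycling cells were above neuron-like cells in 10 of 12 embryos with overlapping ranges. The cycling mean without genotype in view mixes a control mean of 81.5 with an Eed-cKO mean of 33.4.

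The accessory subunits of PRC2.2 differed from each other. *Jarid2*, which helps to recruit the complex, kept to 65.9 to 75.6 CPM in the means of the 4 kinds, and no pair of these kinds differed beyond the spread. Its levels in cells grouped by cycling markers, which were not flat, are given below. It was at 110 ± 29.3 CPM in endothelial-like cells (n = 12) and 56.2 ± 23.8 in leptomeningeal-like cells (n = 11). *Aebp2*, which binds DNA and stabilises the complex, was lowest in neurons, at 47.6 ± 5.48 CPM, against 94.6 ± 28.9 in astrocyte-like, 89.8 ± 37.3 in cycling and 68.7 ± 17.5 in non-neural cells. Astrocyte-like cells exceeded neuron-like cells in 15 of 15 embryos (1.99-fold) and cycling cells did in 12 of 12 (1.93-fold), both with overlapping ranges. In tanycyte-like cells, the glia that line the floor of the third ventricle, *Aebp2* reached 158 ± 78.4 CPM (n = 8).

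The accessory subunits of PRC2.1 had opposite orders. *Mtf2*, which recruits PRC2 to CpG islands, was highest in neuron-like cells, at 159 ± 19.1 CPM, against 75.6 ± 19.1 in astrocyte-like, 95.1 ± 24.3 in non-neural and 93.2 ± 35.4 in cycling cells. The lowest neuron-like value, 120 CPM, lay above the highest astrocyte-like value, 110, and neuron-like cells were higher in 15 of 15 embryos, in 14 of 14 against non-neural and in 11 of 12 against cycling cells. *Phf19*, a paralogue of *Mtf2*, had the steepest difference of the 10 genes in its means, from 31.0 ± 18.9 CPM in cycling cells through 6.80 ± 5.64 in astrocyte-like and 4.34 ± 7.10 in non-neural cells to 0.438 ± 0.559 in neuron-like cells. Those neurons held 25 UMIs of *Phf19* in 9828 cells, and the cycling cluster 50 UMIs in 297 cells. Cycling cells exceeded neuron-like cells in 11 of 12 embryos, and 1 control embryo had none in either kind.

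Levels were also read cell by cell, within the clusters named as neural. For each neuron-like, astrocyte-like, cycling or other named neural cell it was counted how many of the 12 cycling markers had a UMI. Most cells, 9172, had none, whereas 1763 had 1, 189 had 2, 85 had 3 to 5 and 174 had 6 or more. The groups are ranges of a count and not cell types, and their median depth was 4836, 5947, 6306, 3980 and 5900 UMIs. They pool cells over embryos, so their intervals hold no spread between embryos. *Ezh2* stood at 49.6 CPM in cells with none, 47.3 with 1, 55.6 with 2, 137 with 3 to 5 and 214 with 6 or more (95% Poisson interval 188 to 242). *Suz12* went from 65.8 to 164 CPM and *Rbbp4* from 287 to 501 between the first and last group. The genotypes were not evenly spread, with 4741 control and 4431 Eed-cKO cells in the first group and 49 and 125 in the last. Within each genotype the intervals of the first and last group lay apart for *Ezh2* (46.9 to 206 CPM in control, 53.0 to 217 in Eed-cKO), *Suz12* (65.4 to 200.4 and 66.1 to 149.7) and *Rbbp4* (284 to 526.3 and 291 to 491). *Phf19* went from 0.426 to 23.9 CPM in control (8 UMIs in the last group) and from 1.14 to 53.0 in Eed-cKO cells (45 UMIs). *Mtf2* went from 153 to 83.7 CPM in Eed-cKO cells, whereas in control cells the last group had 123 CPM with an interval of 87.99 to 166 that holds the 150.4 CPM of the first. *Ezh1* had 11.8 CPM in the first and 6.76 in the last group over both genotypes, the last with only 8 UMIs and an interval of 2.92 to 13.3 that holds the first value. For *Ezh2*, *Suz12* and *Rbbp4* the intervals of cells with 1 or 2 markers overlapped those of cells with none. From the first to the last group *Rbbp7* went from 186 to 284 CPM in control and from 165 to 309 in Eed-cKO cells. *Aebp2* went from 49.1 to 80.7 and from 52.4 to 90.7, and the intervals of both genes lay apart. *Jarid2* fell from 74.8 to 41.9 CPM in control, with intervals apart, and from 76.6 to 57.7 in Eed-cKO, with overlap. *Eed* rose from 31.0 to 80.7 CPM in control, with intervals apart, and from 23.1 to 30.6 in Eed-cKO, with overlap.

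**Figure D2:**
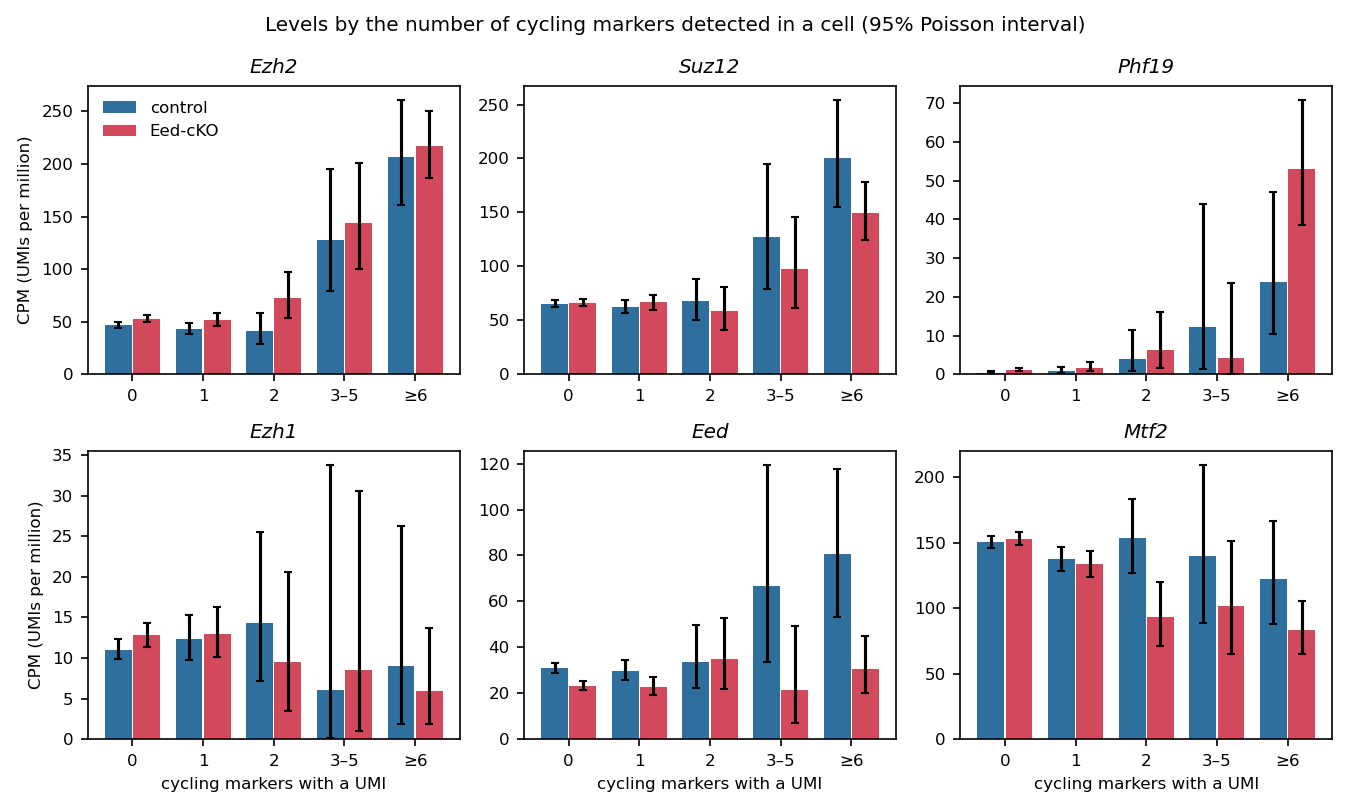
Levels of 6 subunits (CPM, linear axis from 0) in All-Hypo cells of named clusters grouped by how many of 12 cycling markers had a UMI; blue bars are control and red bars Eed-cKO cells, and lines the 95% Poisson interval. With 6 or more markers *Ezh2* reaches 206 CPM in control and 217 in Eed-cKO cells, whereas *Mtf2* is at 83.7 in Eed-cKO cells and at 123, with an interval that holds the value of cells with none, in control cells.

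The balance of both enzymes was read as the *Ezh1* share of all *Ezh1* and *Ezh2* UMIs. Over all cells of a kind it was 3.83% in cycling cells (12 *Ezh1* against 301 *Ezh2* UMIs; exact 95% binomial interval 2.00 to 6.60), 11.7% in astrocyte-like cells (44 against 333; 8.61 to 15.3), 20.5% in neuron-like cells (716 against 2783; 19.1 to 21.8) and 35.3% in non-neural cells (94 against 172; 29.6 to 41.4). Compared within embryos, the share was higher in neuron-like than in cycling cells in 12 of 12, higher in neuron-like than in astrocyte-like cells in 13 of 15, and higher in non-neural than in neuron-like cells in 13 of 14. *Ezh2* UMIs outnumbered *Ezh1* UMIs in each of these 4 kinds, and least so in non-neural cells, most of which were Eed-cKO. In control cells the *Ezh1* share was 27.03% in non-neural (interval 19.04 to 36.28) and 20.56% in neuron-like cells (18.74 to 22.47), with overlapping intervals. In Eed-cKO cells it was 41.29% (33.45 to 49.47) and 20.35% (18.43 to 22.38). Within embryos, endothelial-like cells had a higher share than neuron-like cells in 7 of 12 and a lower one in 5. Leptomeningeal-like cells were higher in 8 of 10 and lower in 2. Over all cells of both genotypes the share was 30.1% in endothelial-like, 37.7% in leptomeningeal-like and 50% in microglia-like cells. The intervals of these non-neural kinds overlap (21.8 to 39.4, 28.5 to 47.7 and 31.3 to 68.7).

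**Figure D3:**
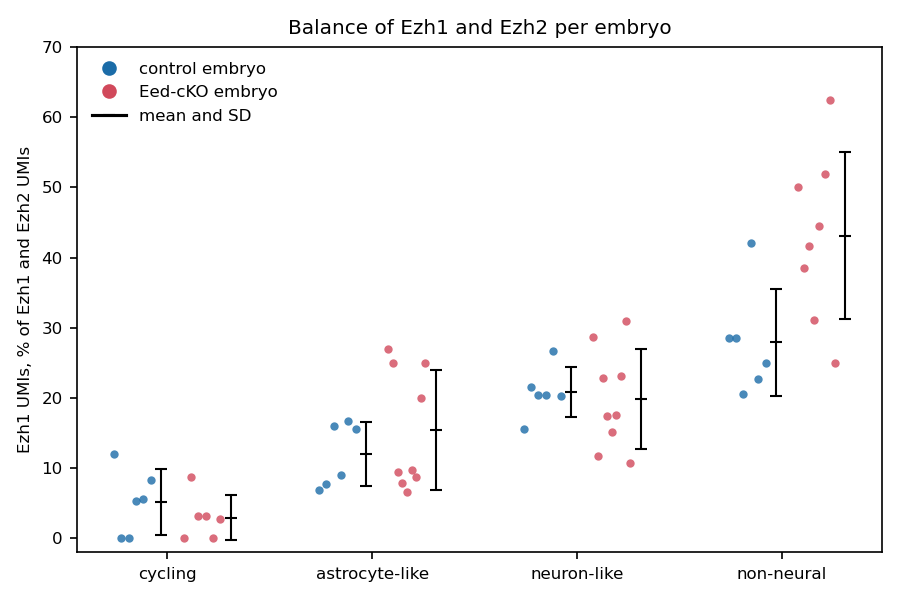
*Ezh1* UMIs as a percentage of *Ezh1* and *Ezh2* UMIs in each embryo (points, blue control, red Eed-cKO) for 4 cell kinds, with the mean and SD of each genotype. The share rises from cycling over astrocyte-like and neuron-like to non-neural cells, where the control mean is 27.9% and the Eed-cKO mean 43.1%.

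Neurons were not uniform. Since genotypes took different shares of the cells of a cluster, the 14 neuron-like clusters with at least 50 control cells were read in control cells, with the Eed-cKO cells of the same cluster beside them. *Ezh2* ran from 29.2 CPM in cluster 10, led by *Oxt* and *Avp*, the neuropeptide genes of magnocellular neurons, to 83.4 CPM in cluster 15, led by *Lhx6* and *Dlx1as*, genes of inhibitory neurons. In Eed-cKO cells these clusters were also lowest and highest, at 28.6 and 137.5 CPM. Cluster 15 had the highest *Suz12* and *Rbbp4* of the neuron-like clusters in either genotype, with 93.7 CPM of *Suz12* in control and 95.8 in Eed-cKO cells, and 359.9 and 459 CPM of *Rbbp4*.

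*Ezh1* was highest in cluster 3, led by *Barhl1* and *Irx5*, at 16.9 CPM in control (86 UMIs) and 17.98 in Eed-cKO cells (53 UMIs). Clusters 7, 15 and 8 were lowest in control cells, at 5.46, 7.50 and 7.86 CPM, on 7 to 12 UMIs each and with overlapping intervals. The *Ezh1* share of both enzymes in control cells was 8.25% in cluster 15 (8 against 89 UMIs, interval 3.63 to 15.6) and 33.7% in cluster 3 (86 against 169 UMIs, interval 27.9 to 39.9). In Eed-cKO cells it was 1.75% (interval 0.0444 to 9.39) and 35.6% (interval 27.9 to 43.8). Depth differed as well, with a median of 3493 UMIs per cell in cluster 15 and 7341 in cluster 3 over both genotypes, and its part was not tested. *Mtf2* reached 225 CPM in control cells of cluster 7, led by *Agrp* and *Npy*, and 204 in those of cluster 8, led by *Gpr179* and *Ppp1r17*, with overlapping intervals. In Eed-cKO cells cluster 7 had 189 CPM, below clusters 15 (243), 8 (199.7) and 5 (195).

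**Figure D4:**
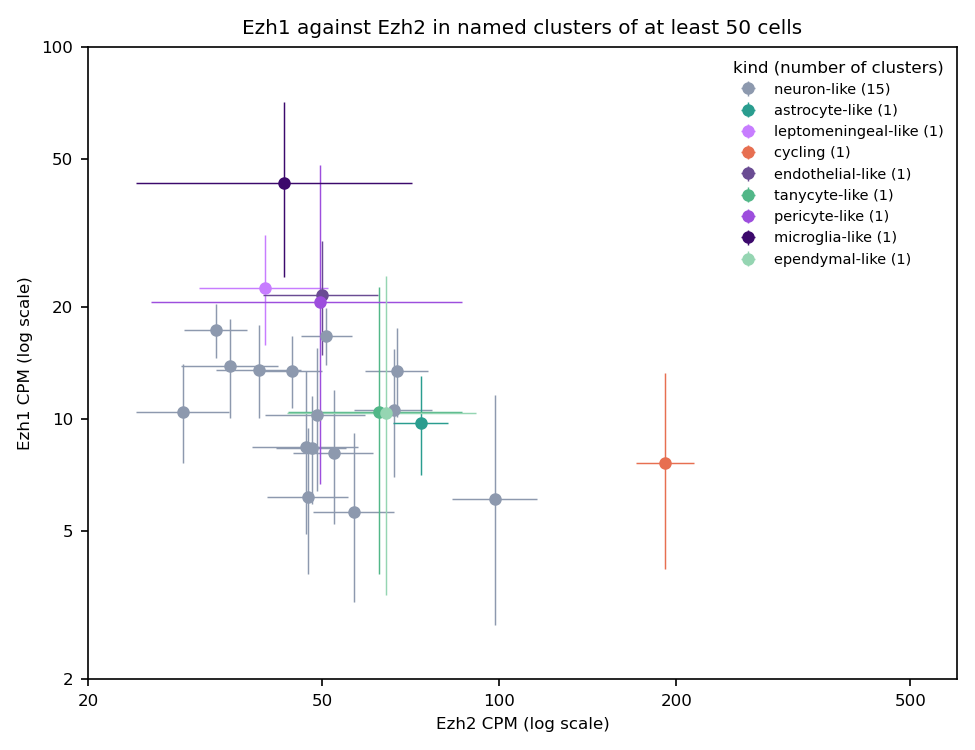
*Ezh1* against *Ezh2* level (CPM, both axes logarithmic) in named clusters of at least 50 cells, both genotypes pooled, coloured by kind; lines are 95% Poisson intervals. The cycling cluster lies alone at 192 CPM of *Ezh2*, the microglia-like cluster has the highest *Ezh1* (43.0 CPM), and neuron-like clusters spread from 29.1 to 98.4 CPM of *Ezh2*.

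Genes with the pattern most like that of each enzyme and core subunit were ranked by Pearson correlation of log2(CPM + 1) over 22 clusters of at least 50 control cells, among 11337 genes. The clusters share libraries and differ in depth, so the values are descriptive. For *Ezh2* they were *Tmpo* (r = 0.86), *Cdk2ap1* (0.84), *Cdk4* (0.83), *Suz12* (0.82) and *Mcm7* (0.81). *Suz12* was nearest to *G3bp1* (0.84), *Ezh2* (0.82), *Nxt1* (0.82), *Cep192* (0.82) and *Tmpo* (0.81). *Tmpo* codes for a nuclear lamina protein, *Cdk4* for a kinase of the cell cycle and *Mcm7* for a subunit of the replication helicase. For *Eed* they were *Hspa14* (0.84), *Cdk12* (0.83), *Jmjd1c* (0.81), *Smc2* (0.81) and *Incenp* (0.79), and for *Ezh1* *Gxylt1* (0.84), *Rps6ka4* (0.83), *Spns1* (0.82), *Colgalt1* (0.79) and *Slc36a1* (0.79). No member was among the 5 nearest to *Ezh1*, and *Ezh1* and *Ezh2* had r = -0.15 with each other. Among all 36 pairs of members with enough UMIs, the highest was that of *Ezh2* and *Suz12*.

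The genotypes were then compared to ask whether loss of *Eed* in neural cells came with other levels of the subunits. What Cre removes from *Eed* are exons 3 to 6, at chr7:89969571-89972323 in GRCm38. The last of its 12 exons, at chr7:89954654-89955063, lies outside that stretch, 14508 bp away in the genome. A transcript end counted there does not itself show whether the deleted exons are present. Whether the deletion changes the amount of *Eed* transcript was not tested, so the *Eed* level is no direct check of the deletion or the labels.

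*Eed* was lower in Eed-cKO. In All-Hypo cells control embryos had 28.7 to 33.0 CPM with a median of 32.3, and Eed-cKO embryos 19.5 to 27.9 with a median of 23.0. All 9 Eed-cKO embryos lay below all 6 controls. How many of all genes had no overlap between the genotypes was not counted, for this or any other set of cells. The log2 fold change of Eed-cKO over control was -0.45 ± 0.085 (SE) with an adjusted p of 0.000454 (edgeR quasi-likelihood test, Benjamini-Hochberg over 12558 genes). Of the 9 members that could be tested in All-Hypo, *Eed* was the only 1 past the threshold of 0.05, against 27.7% of all genes tested and 12.4% called lower. Of those calls 1920 were higher and 1562 lower, and 2303 and 1097 with library size alone. Fold changes come from TMM-normalized sums, whereas CPM is the plain share of UMIs.

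The same held within neuron-like cells, where *Eed* stood at 27.6 to 32.5 CPM in controls (median 30.7) and 17.9 to 27.5 in Eed-cKO (median 22.6), again with no overlap. The log2 fold change was -0.41 ± 0.093 with an adjusted p of 0.00310 (edgeR). It was 1 of 9 members tested that passed, against 15.3% of all genes and 7.33% called lower. Neuron-like cells included cluster 0, led by *Hoxc10* and other Hox genes, in which 1443 of 1455 cells were Eed-cKO. Without the clusters of which over 95% of cells were of 1 genotype, *Eed* had a log2 fold change of -0.42 (adjusted p = 0.00749, edgeR).

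The other 8 subunits tested did not pass in neurons, with fitted differences between -0.19 and 0.21 on the log2 scale. *Ezh2* was at 44.1 ± 5.65 CPM in control and 53.2 ± 8.77 in Eed-cKO neuron-like cells, with ranges of 37.5 to 54.5 and 40.6 to 68.2 that overlapped. Its log2 fold change was 0.21 ± 0.102 with an adjusted p of 0.170 (edgeR). Controls had 11.4 ± 1.29 CPM of *Ezh1* and Eed-cKO embryos 12.9 ± 4.72, which gave a log2 fold change of 0.18 ± 0.164 (adjusted p = 0.50, edgeR). *Suz12* differed by 0.0072 ± 0.075 on the log2 scale, *Mtf2* by 0.055 ± 0.079, *Jarid2* by -0.0043 ± 0.083, *Rbbp4* by -0.042 ± 0.070, *Aebp2* by -0.070 ± 0.082 and *Rbbp7* by -0.19 ± 0.079, the last with an adjusted p of 0.101 (edgeR). In All-Hypo the fitted differences of the 8 other members tested lay between -0.15 (*Rbbp7*, adjusted p = 0.199, edgeR) and 0.20 (*Ezh2*, adjusted p = 0.159, edgeR). *Phf19* was too low for the filter of both comparisons. It was at 0.874 ± 0.465 CPM in control and 2.42 ± 1.41 in Eed-cKO All-Hypo cells with overlapping ranges, and without the gene filter its log2 fold change of 1.56 had an adjusted p of 0.00343 (edgeR), when 24.8% of 16487 genes passed. In neuron-like cells without the filter it had a log2 fold change of 1.56 as well, with an adjusted p of 0.126 (edgeR). All-Hypo cells of named clusters with 6 or more cycling markers held 8 UMIs of *Phf19* in 49 control and 45 in 125 Eed-cKO cells. The part of this makeup in the All-Hypo value of *Phf19* was not tested.

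In astrocyte-like cells none of the 10 members passed, against 12.2% of 12426 genes tested, and 3 had an unadjusted p under 0.05. By DESeq2 none passed either. *Aebp2* came nearest, with 51.3 to 116 CPM in controls (median 65.9) and 84.0 to 150 in Eed-cKO (median 99.6), ranges that overlapped. Its log2 fold change was 0.55 ± 0.196 with an adjusted p of 0.0575 (edgeR). That p fell to 0.0182 without control embryo 3, to 0.0497 without Eed-cKO embryo 1 and to 0.0475 with library size alone, so that a single embryo or the scaling decides the call. *Rbbp7* had a log2 fold change of 0.34 ± 0.170 (adjusted p = 0.212, edgeR) and *Mtf2* of -0.39 ± 0.193 (adjusted p = 0.213, edgeR). *Eed* was at 32.4 ± 9.13 CPM in control and 27.6 ± 9.86 in Eed-cKO astrocyte-like cells.

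In cycling cells none of the 9 members tested passed, against 4.37% of 10529 genes, and 2 had an unadjusted p under 0.05. By DESeq2 none passed either. The 2 genes were *Phf19*, with 0 to 35.1 CPM in control and 19.96 to 62.2 in Eed-cKO embryos and a log2 fold change of 1.51 ± 0.560 (adjusted p = 0.132, edgeR), and *Eed*, with 24.1 to 211 and 0 to 49.9 CPM and -0.89 ± 0.437 (adjusted p = 0.326, edgeR). *Ezh2* was at 208 ± 120 CPM in control and 201 ± 18.2 in Eed-cKO, with a log2 fold change of 0.23 ± 0.255. With the cells that remained cycling at the finer resolution, *Phf19* had 0.34 and *Eed* 1.47, the latter the opposite direction, with no pass. The precursor and cycling marker sums given above differed between the genotypes in the cycling cluster, and their part in the values of that cluster was not tested.

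In non-neural cells, where the action of Sox1-Cre was not tested, none of the 9 members tested passed, against 2.89% of 12408 genes, and 2 had an unadjusted p under 0.05. By DESeq2 none passed either. *Eed* was at 25.2 to 48.8 CPM in controls (median 40.8) and 7.17 to 64.1 in 8 Eed-cKO embryos (median 19.2), with 6 of the 8 below all controls and 1 above all. Its log2 fold change of -0.85 ± 0.333 had an adjusted p of 0.216 (edgeR). The Eed-cKO embryo above all controls had 18 non-neural cells with 5 *Eed* UMIs. *Suz12* was at 83.8 ± 18.51 CPM in control and 57.1 ± 13.1 in Eed-cKO, a log2 fold change of -0.45 ± 0.201 (adjusted p = 0.297, edgeR). The makeup of these cells moved as well, with 89 leptomeningeal-like and 150 endothelial-like cells in controls against 268 and 123 in Eed-cKO. Cycling markers summed to 587 CPM in the median control and 387 in the median Eed-cKO embryo (ranges 456 to 796 and 179 to 667). The part of either in these values was not tested.

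The difference of *Eed* was not shown to be particular to All-Hypo cells. The log2 difference between genotypes in All-Hypo minus that in non-neural cells was 0.37 ± 0.342 for *Eed* (adjusted p = 0.680, edgeR with the embryo as a block). None of the 9 members tested passed in this interaction, against 4.60% of 12408 genes, and none had an unadjusted p under 0.05. By DESeq2 none passed either. *Ezh2* had 0.53 ± 0.260 and *Ezh1* -0.53 ± 0.360 (adjusted p = 0.322 and 0.528, edgeR). With library size alone the median of all genes in this contrast moved from 0.02 to 0.12.

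**Figure D5:**
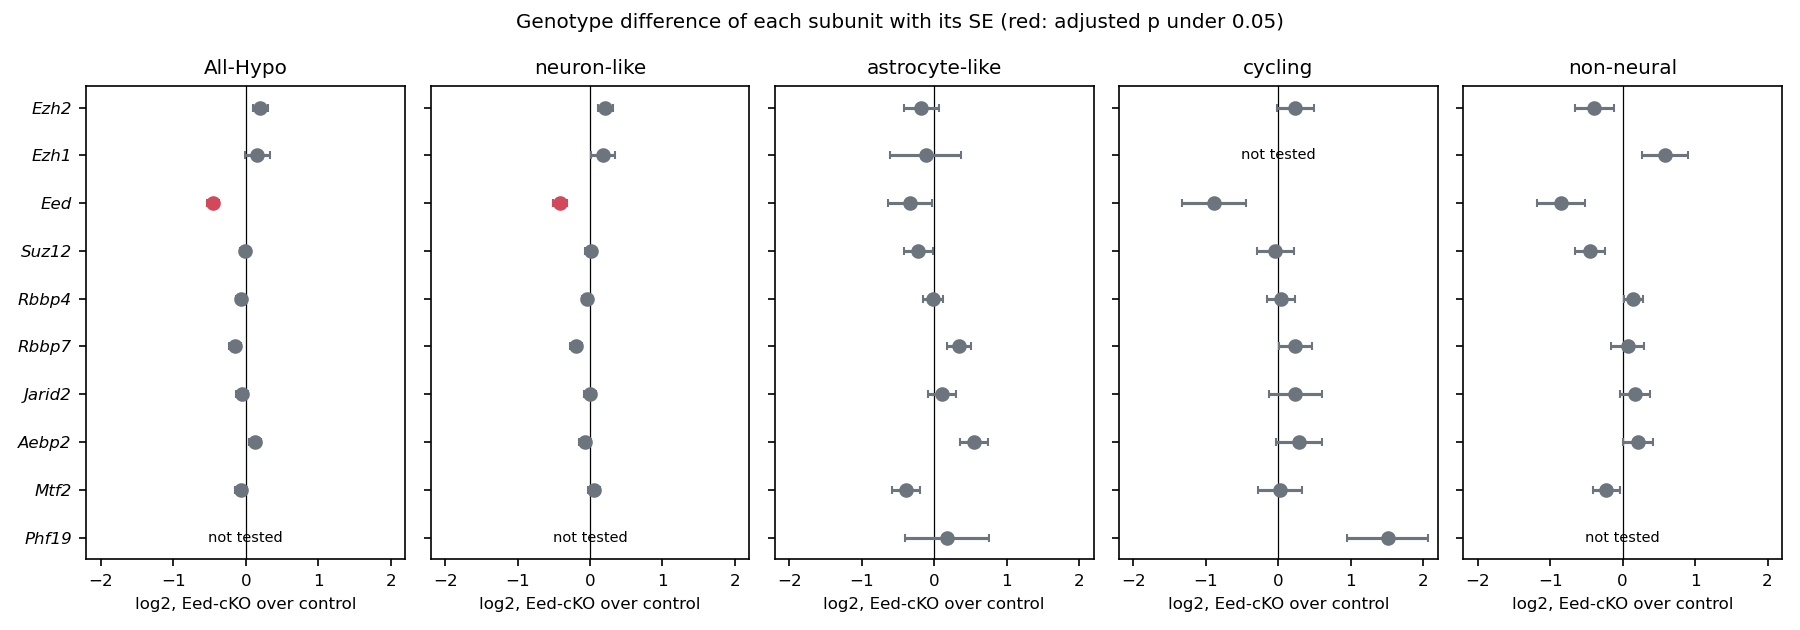
Log2 fold change of Eed-cKO over control with its SE for each subunit in 5 sets of cells (edgeR, embryos as replicates; red marks an adjusted p under 0.05). *Eed* lies at -0.45 in All-Hypo and -0.41 in neuron-like cells, the 2 points past the threshold, and the bars widen in cycling and non-neural cells.

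The balance of both enzymes was compared between genotypes as log2((*Ezh1* UMIs + 0.5)/(*Ezh2* UMIs + 0.5)) per embryo, with an exact two-sided permutation test and adjustment over the 5 sets of cells. The share of *Ezh1* per embryo was 15.6 to 26.6% in control neuron-like cells (median 20.4) and 10.7 to 31.0% in Eed-cKO (median 17.6), and the log2 difference was -0.13 (exact p = 0.643, adjusted 0.686). In astrocyte-like cells it was 0.32 (exact p = 0.488, adjusted 0.686), and in cycling cells -0.72 (exact p = 0.203, adjusted 0.509). Pooled over cells, the cycling cluster had a share of 5.61% in control and 2.91% in Eed-cKO. In the cells that remained cycling at the finer resolution it was 2.67% in control (2 *Ezh1* UMIs) and 2.66% in Eed-cKO (5 *Ezh1* UMIs). All-Hypo had -0.11 (exact p = 0.686, adjusted 0.686). The widest difference was that of non-neural cells, where controls had 20.6 to 42.1% (median 26.8) and Eed-cKO embryos 25.0 to 62.5% (median 43.1), a log2 difference of 0.92 with an exact p of 0.0133 and an adjusted p of 0.0666. The ranges overlapped. Its side of the threshold depended on single embryos, since without control embryo 4 the adjusted p was 0.0155 and without Eed-cKO embryo 9 it was 0.0408. With all cells thinned to 2000 UMIs and shallower cells left out, the non-neural difference turned to -0.59, on 10 *Ezh1* and 20 *Ezh2* UMIs in control and 15 and 35 in Eed-cKO. Its p was 0.281 (exact permutation test), and the pooled shares of *Ezh1* were 33.3% in control and 30% in Eed-cKO. These counts are too few to decide whether the share differs at matched depth.

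Other genes of the Polycomb system were read from a list. Of 28 listed genes (other PRC2-associated proteins, the H3K27 demethylases and PRC1, the complex that ubiquitylates histone H2A), 25 could be tested in All-Hypo, and 6 rose and 3 fell in Eed-cKO, against 15.3% of all genes called higher and 12.4% called lower. The list had a median log2 fold change of 0.11 and all genes one of 0.01. *Bmi1*, a PRC1 subunit that restrains *Cdkn2a* in neural stem cells, rose by 1.304 ± 0.084 on the log2 scale (adjusted p = 2.18e-10, edgeR), from 68.0 to 92.2 CPM in controls to 183 to 280 in Eed-cKO embryos. All 9 Eed-cKO embryos lay above all controls. *Epop*, listed in the table as *E130012A19Rik* and known as a partner of PRC2.1, rose by 1.93 ± 0.226 (adjusted p = 1.86e-06, edgeR), from 2.22 to 8.52 CPM in the means. The chromodomain gene *Cbx8*, whose protein reads H3K27me3, rose by 0.96 ± 0.109, with no overlap of embryos. *Pcgf5* rose by 1.07 ± 0.218 and *Phc2* by 0.28 ± 0.080, with overlapping embryos. *Phc2* no longer passed by limma with TREAT (adjusted p = 0.141). In neuron-like cells, most of All-Hypo, *Pcgf5* was at 2.07 ± 0.795 CPM in control and 1.92 ± 0.630 in Eed-cKO embryos, under the filter there. In astrocyte-like cells it was at 17.1 ± 8.47 and 30.3 ± 9.72 CPM and did not pass (adjusted p = 0.103, edgeR), and these cells numbered 376 in control and 640 in Eed-cKO. The part of this makeup in the All-Hypo value was not tested. *Lcorl*, a PRC2.1 accessory protein, fell by 0.40 ± 0.076, *Cbx6* by 0.40 ± 0.095 and *Eloc*, the elongin C gene (*Tceb1* in the table), by 0.26 ± 0.080, all with overlapping embryos. *Eloc* no longer passed without control embryo 3 (adjusted p = 0.0644, edgeR) or by limma with TREAT (adjusted p = 0.230).

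In neuron-like cells 24 of the list could be tested, and 4 rose, *Epop*, *Bmi1* and *Cbx8* among them, while *Lcorl*, *Cbx6* and *Eloc* fell, against 7.96% of all genes called higher and 7.33% called lower. *Epop*, *Bmi1* and *Cbx8* had no overlap between genotypes, and the share of all genes without overlap was not counted. *Bmi1* reached 185 to 294 CPM in Eed-cKO against 67.7 to 92.3 in control neurons. *Eloc* no longer passed in 10 of the alternatives tried, nor did *Lcorl* and *Cbx6* without clusters of 1 genotype. In astrocyte-like cells *Bmi1* (1.65 ± 0.209) and *Phc2* (0.67 ± 0.178) rose among 24 tested, against 7.23% of all genes called higher, and in cycling cells *Bmi1* alone (1.17 ± 0.259, adjusted p = 0.00321, edgeR) among 21, against 2.99% called higher, with all 6 Eed-cKO embryos above all controls. With cells of 3 cycling markers in place of the cluster, *Bmi1* had 1.53 and an adjusted p of 0.0586 (edgeR).

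In non-neural cells none of 25 listed genes passed by edgeR, against 2.89% of all genes, and 2 had an unadjusted p under 0.05. *Bmi1* was at 28.8 to 68.3 CPM in controls and 7.17 to 72.7 in Eed-cKO embryos, with medians of 36.7 and 50.3. The difference of *Bmi1* between All-Hypo and non-neural cells was itself 0.90 ± 0.306 on the log2 scale and did not pass (adjusted p = 0.110, edgeR). In the interaction *Pcgf5* was the only 1 of 25 to pass, with 2.07 ± 0.541 (adjusted p = 0.0288, edgeR), and it was at 3.09 CPM in control and 6.49 in Eed-cKO All-Hypo cells against 17.8 and 9.32 in non-neural cells. This call was lost when any 1 of 5 embryos was left out (control 2, 3 or 5, Eed-cKO 5 or 6).

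Counting could touch some of these values. Exons of an opposite-strand gene overlap those of *Eed* (261 bp, *E230029C05Rik*), *Mtf2* (395 bp, *Tmed5*), *Rbbp7* (174 bp, *Txlng*) and *Rbbp4* (796 bp, *Gm26722*, and 782 bp, *Sync*), as well as *Ezh2* (174 bp) and *Suz12* (178 bp). Whether reads were counted by strand is not given in the sources used here, so reads from such stretches could count for either gene.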

How the data were processed

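Hypothalamus cells of 6 control and 9 Eed-cKO embryos at embryonic day 18.5 were profiled with a droplet 3′ assay that tags molecules with UMIs. The values are raw UMI counts per gene and cell as deposited by the authors, after their own filter on cells. The submitters' processing notes name STAR 2.5.2b, SAMtools 1.3 and mm10. The strand setting of the counting is not given in the sources used here. The 14121 cells left by the study's filter were all kept, with at least 601 UMIs and 318 genes each.

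Cells were normalized, reduced over 2000 variable genes, with the members and the listed pathway genes left out, and clustered with scanpy 1.11.5 and leidenalg 0.10.2 at resolution 1, which gave 28 clusters. Cell type labels were not used here, so cell kinds were rebuilt from markers, and a cluster was named where at least 3 markers of a type were raised 2-fold. Scrublet scores marked 848 cells, the top 6% of each library, as possible doublets, and these were removed only as an alternative. Counts were summed per embryo and cell kind where an embryo held at least 10 such cells. Genes with at least 15 UMIs in all and 2 in 1 embryo entered the test, in All-Hypo and neuron-like cells also with a median log-CPM of at least 1.5. Genotypes were compared with the quasi-likelihood test of edgeR 4.0.16 (R 4.3.3) with TMM factors and a Benjamini-Hochberg threshold of 0.05 over all genes tested. The interaction fit took the embryo as a block. The *Ezh1* to *Ezh2* balance was tested by exact permutation over embryos (scipy 1.17.1). The scripts were tested on simulated data.

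The alternatives were library size alone, DESeq2 1.42.0, limma 3.58.1 with TREAT, no gene filter, sex as covariate, resolution 2, libraries or litters as samples, doublets removed, narrower non-neural and cycling sets, a pseudocount of 1 in place of 0.5, thinning to 2000 UMIs, and each embryo left out. Clusters were also rebuilt with the members allowed, but none of the members entered. After the data were seen, leaving out the largest library, neuron-like clusters with over 95% of cells from 1 genotype, unnamed clusters, or astrocyte-like cells with 2 cycling markers, and leptomeningeal-like cells alone, were added. The members, the marker and pathway lists and the motif were chosen with earlier results of these data known. The genes named are the members, the 5 most like each enzyme and core subunit, and the listed pathway genes that passed, of which 1 is not reported here. Genome positions are those of GENCODE M21 and promoters those of RefSeq, both on GRCm38. Embryos are separate animals, and 95% intervals (exact Poisson and binomial) cover counting error only. The precision of a level follows its UMIs, which are few for *Ezh1* and *Phf19*.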

Additional observations from a re-analysis of the deposited data

Results flagged for a closer look

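Extreme embryos were looked for in 100 groups of 4 to 10 embryos (1 subunit, 1 cell kind, 1 genotype), and 13 groups held an embryo far from the others. The cutoff flags about 1 in 20 groups when values are independent and normal. That rate does not hold here, since All-Hypo contains the neuron-like and astrocyte-like cells and embryos differed in depth. Eed-cKO embryo 2, with 217 cells and 658175 UMIs the smallest of all, was highest for *Mtf2* in All-Hypo cells (196 CPM, next 156), in neuron-like cells (209.5, next 175) and in astrocyte-like cells (109, next 75.8), and for *Suz12* in neuron-like cells (86.3, next 67.5). Control embryo 3, with 10 cycling cells, was highest in these cells for *Eed* (211 CPM, next 88.3), *Rbbp4* (878, next 524) and *Aebp2* (176, next 90.6). *Ezh1* stood apart in All-Hypo cells of Eed-cKO embryo 8 (23.8 CPM, next 16.1) and in cycling cells of control embryo 1 (30.3 CPM from 3 UMIs, next 8.58). In non-neural cells the embryos apart were control embryo 6 for *Phf19* (25.2 CPM from 4 UMIs, next 7.21), Eed-cKO embryo 9 for *Eed* (64.1 CPM from 5 UMIs, next 25.6) and Eed-cKO embryo 1 for *Aebp2* (115 CPM, next 75.1). *Rbbp4* was low in astrocyte-like cells of control embryo 5 (258 CPM, next 324). These values were kept in the comparisons, and leaving out each embryo was an alternative.

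The genotype difference of *Pcgf5*, a PRC1 gene, differed between All-Hypo and non-neural cells by 2.07 on the log2 scale (adjusted p = 0.0288, edgeR interaction).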

How the results depend on the processing

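*Eed* kept its direction and passed in all 26 alternatives in All-Hypo (adjusted p 1.66e-05 to 0.00405, edgeR or the named tool) and all 21 in neuron-like cells (0.00157 to 0.00981). Past the threshold were 3482 genes in All-Hypo (5860 with libraries as samples), 1821 in neurons, 1512 in astrocyte-like cells, 460 in cycling cells (235 by DESeq2, 13 at resolution 2, 29 with cells of 3 cycling markers) and 358 in non-neural cells (14 with endothelial-like and pericyte-like, 193 with leptomeningeal-like cells alone). With 1 embryo left out these counts, and that of the interaction, ran from 2834 to 3856, 1350 to 2250, 1312 to 1513, 258 to 491 (303 without control embryo 6, 258 without Eed-cKO embryo 5), 232 to 383 (fewest without Eed-cKO embryo 6) and 380 to 636 (fewest without control embryo 2). Fewer cells or embryos entered those fits. Subunits past the threshold were 2 in All-Hypo without the gene filter and 3 with libraries as samples (*Ezh2*, *Rbbp7* and *Eed*), 1 to 2 in neuron-like cells with an embryo left out (*Rbbp7*, -0.22, adjusted p = 0.0494, edgeR, without control embryo 5), 0 to 1 in astrocyte-like cells with an embryo left out, and 1 with library size alone (*Aebp2*).

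The balance turned from 0.32 to -0.029 in astrocyte-like and from 0.92 to -0.59 in non-neural cells when cells were thinned, on few UMIs. With an embryo left out it ran from 0.77 to 1.09 in non-neural cells (1.04 without Eed-cKO embryo 9). Some fold changes changed sign, most of them near 0 but not *Eed* (-0.89) and *Ezh2* (0.23) in cycling cells, and the cause was not tested. With library size alone these were *Suz12* in All-Hypo (0.040), *Jarid2* in neuron-like (0.024), *Rbbp4* in astrocyte-like (0.013) and cycling (-0.029), and *Mtf2* in cycling cells (-0.024). With unnamed clusters out it was *Suz12* (0.011), with clusters of 1 genotype out *Suz12* (-0.036) and *Jarid2* (0.0075) in neuron-like cells, and without the filter *Suz12* there (-0.012). With sex in the fit they were *Ezh1* (0.085) and *Phf19* (-0.066) in astrocyte-like and *Mtf2* in cycling cells (-0.0070), by DESeq2 *Mtf2* (-0.019), and without cells of 2 cycling markers *Rbbp4* in astrocyte-like cells (0.0024). At resolution 2 they were *Phf19* in astrocyte-like (-0.039) and *Mtf2* (-0.27), *Ezh2* (-0.22) and *Eed* (1.47) in cycling cells, and with cells of 3 cycling markers *Mtf2* (-0.64). The cycling fit at resolution 2 held 3 control and 6 Eed-cKO embryos. Among non-neural cells, endothelial-like and pericyte-like ones gave *Mtf2* 0.040 and *Rbbp7* -0.022, and leptomeningeal-like ones *Rbbp7* -0.34. With 1 embryo left out, ranges crossing 0 were *Suz12* in All-Hypo (-0.056 to 0.030), neuron-like (-0.032 to 0.042) and cycling cells (-0.14 to 0.040), *Jarid2* (-0.056 to 0.043) and *Mtf2* (-0.0035 to 0.088) in neuron-like, *Ezh1* (-0.42 to 0.062), *Phf19* (-0.080 to 0.88) and *Rbbp4* (-0.081 to 0.026) in astrocyte-like, *Rbbp4* (-0.022 to 0.11) and *Mtf2* (-0.11 to 0.13) in cycling, *Rbbp7* in non-neural cells (-0.032 to 0.22) and *Aebp2* in the interaction (-0.21 to 0.012). Of all fold changes recomputed, 1508 kept direction and side, 60 changed sign, 21 no longer passed and 6 newly passed. No paired analysis was possible because the embryos of the groups share no pairing in the labels. Depth limits *Ezh1*, with 12 UMIs in cycling and 44 in astrocyte-like cells, and *Phf19*, with 137 UMIs in all.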
